A study of Mus musculus with 19 samples.

Results

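Quiescent and proliferative cells of mouse skin squamous cell carcinoma, a cancer of keratinocytes, were compared by RNA sequencing in 2 tumours, SCC1 and SCC2. The comparison rests on 4 of the 19 samples of the study, with 1 library per population and tumour, each made from 100000 sorted cells per the labels' protocols. All 1609 genes with a quiescent over proliferative ratio in the deposited expression table were used. Quiescent cells were low in CD71, the transferrin receptor, and high in H2BGFP, a fluorescent histone label that a cell keeps while it does not divide. Proliferative cells were high in CD71 and low in H2BGFP. Both populations came from allografts of 10000 cells placed in the dermis, in the C57BL/6 strain, and both were sorted by the H2BGFP label. The sources used here do not give the age and sex of the hosts or the promoter that drives the label. Another population, low for both CD71 and H2BGFP and called double negative, was measured in the same tumours and is used here only for values set side by side.

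A cell that divides copies its DNA in S phase and separates the copies in mitosis. Much of the machinery for this is made only when it is needed: E2F factors drive genes of DNA replication, and the MuvB complex with B-Myb and FoxM1 drives genes of mitosis. Resting cells keep these genes off through pocket proteins and repressor forms of the same complexes. In skin, slowly cycling stem cells of the hair follicle are a known example, and BMP and TGF-β signals are known to hold keratinocytes in arrest.

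Each value is a log2 ratio between 2 sorted libraries of one tumour, as the authors deposited it: a value of 1 is a 2-fold higher level in quiescent cells, and -1 a 2-fold lower level. A gene is called here when it was at least 2-fold apart in the same direction in both tumours. The tumours are the only replicates, and with 2 of them a two-sided exact sign-flip test cannot give a p below 0.5, so no test of single genes was made. The table gives no read totals or expression levels, so the depth behind a ratio is unknown. It lists genes selected by the authors, by a rule the sources used here do not give, so a gene without a row is not shown to be unchanged, and many calls are built into the table. Counts of called genes are to be read against the whole table, in which 11.3% were called higher and 23.3% lower.

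Tfrc, Mki67 and Id1 were taken as markers of the populations. Of their 3 products the labels name only CD71, encoded by Tfrc. Cells were sorted on CD71, so the direction of Tfrc is part of the gate. Tfrc, which encodes CD71 (chr16:32608896-32632794 in GRCm38.p6), was at -1.72 (SCC1) and -1.55 (SCC2) on the log2 scale per the authors' deposited table. The proliferation antigen gene Mki67 (chr7:135689784-135716450) was at -5.90 and -2.28 per the authors' deposited table. Id1, a BMP-induced inhibitor of differentiation factors (chr2:152736251-152737410), had 2.93 in SCC1 and 1.90 in SCC2 per the authors' deposited table. Tfrc differed by a like amount in both tumours, whereas Mki67 was far lower in SCC1. Of 7 markers of skin epithelium, 1 was listed: Epcam, a cell adhesion gene, with -3.21 and -0.40 per the authors' deposited table. Keratin levels could not be checked from ratios.

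Across the table, quiescent cells of both tumours had 182 genes at least 2-fold higher (11.3% of 1609) and 375 at least 2-fold lower (23.3%). Another 34 genes (2.11%) were at least 2-fold apart in opposite directions, 30 of them higher in SCC2 and 4 higher in SCC1. Of the 4, 2 rest on an undefined ratio in SCC2, described below, and 32 of the 34 have defined ratios. The tumours differed in shape. In SCC1, 19.7% of genes were at least 2-fold higher and 34.9% lower, and in SCC2 29.8% were higher and 33.6% lower. Of the 362 called lower genes with defined ratios, 282 had the larger difference in SCC1, and of 170 such higher genes 113 had the larger one in SCC2. The median over the table was -0.61 in SCC1 and -0.49 in SCC2. With each tumour centred on that median, 436 genes were called higher and 175 lower, so the higher share of the calls went from 32.7% to 71.4%. The direction of small differences thus depends on scaling between libraries, which the sources used here do not give.

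**Figure D1:**
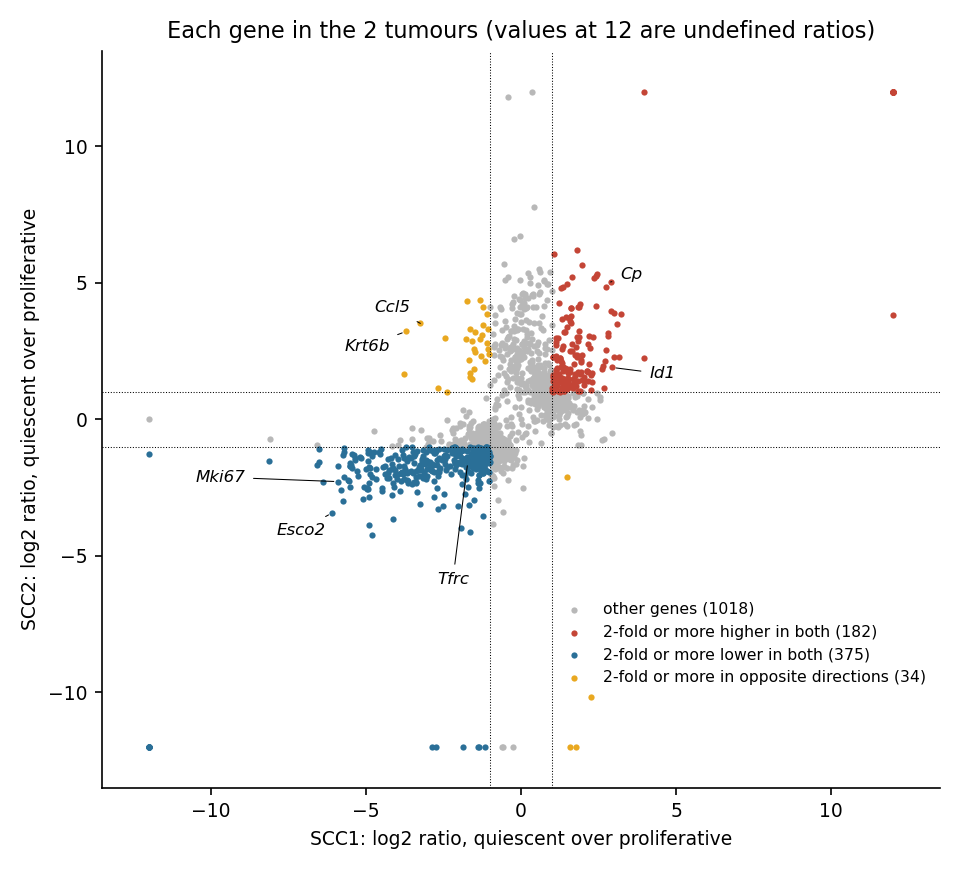
Log2 ratio of quiescent over proliferative cells for each of 1609 genes in SCC1 (horizontal axis) and SCC2 (vertical axis), 1 point per gene, with dotted lines at 2-fold. The 375 genes lower in both tumours reach further left than down, and the 34 genes with opposite directions lie mostly at the upper left; values at 12 in size are undefined ratios.

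The genes furthest below in both tumours included many of cell division. By the smaller of the 2 differences, Ankle1, a nuclease gene, led with -4.80 in SCC1 and -4.25 in SCC2 per the authors' deposited table. Next came BC030867, at -4.90 and -3.87 per the authors' deposited table. For Kif20a, a kinesin motor of cytokinesis, the authors' deposited table gave -4.13 and -3.66. Esco2, which acetylates cohesin in S phase, stood at -6.09 and -3.43 per the authors' deposited table. Ankle1 and Kif20a had like values in both tumours. In the authors' deposited table Gls2, a mitochondrial glutaminase and not a division gene, had -3.26 and -3.09. Spdl1, which brings dynein to kinetochores, had -3.35 and -2.65, and Diap3, an actin-nucleating formin, -4.49 and -2.64, per the authors' deposited table. A single row covering 3 natural killer receptor genes, Klra18, Klra33 and Klra4, was at -2.66 and -3.28 per the authors' deposited table, and its reads cannot be assigned to 1 of them. Another of the leading 15, 2700099C18Rik, had -3.89 and -2.61 per the authors' deposited table.

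All listed cell division genes that had a ratio were lower in both tumours as deposited. Cells were sorted on a label kept while a cell does not divide. The direction of division genes, as of Mki67, is therefore not independent of the gate. The lists joined here were cyclins and their kinases, the anaphase-promoting complex, kinetochore, mitotic kinases, spindle motors, condensin and cohesin, and replication. Of their 148 genes with a ratio, 148 were lower in both tumours, where 52.3% of all genes were. Of them 123 were called lower, where 23.3% of the table was. After centring each tumour on its median these became 145 lower and 75 called. The deposited median was -3.23 in SCC1 and -1.51 in SCC2, against -0.61 and -0.49 over the table. In 137 of them the difference was larger in SCC1. A ratio was given for 12 of 22 listed cyclin genes, 10 of 20 anaphase-promoting complex genes and 11 of 18 condensin and cohesin genes. The kinetochore list had 35 of 44, mitotic kinases 14 of 15, spindle motors 27 of 30 and replication 41 of 46. Listed genes without a ratio are not shown to be lower.

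Cyclins and their kinases time entry into each phase. Of 12 genes with a ratio, 10 were called lower (5 after centring) and 0 higher, against 23.3% and 11.3% of the table. The medians were -3.09 and -1.37. Ccnb1, the cyclin of mitotic entry, had -5.70 in SCC1 and -2.12 in SCC2 per the authors' deposited table. Ccna2, the cyclin of S phase and G2, was at -3.77 and -1.70 per the authors' deposited table. Cdk1, the kinase both cyclins bind, had -3.78 and -1.40 per the authors' deposited table. All 3 thus differed by more in SCC1 than in SCC2. The kinase Pkmyt1 holds Cdk1 inactive and the phosphatase Cdc25b releases it. In the authors' deposited table Pkmyt1 had -2.69 and -1.93. Cdc25b had -1.96 and -1.62 per the authors' deposited table, so activator and inhibitor were lower together. The G1 cyclins were the 2 not called: per the authors' deposited table Ccnd1 had -0.62 and -1.30, and Ccne1 -2.83 and -0.78.

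Replication genes were lower by less than mitotic ones. Of 41 licensing and fork genes with a ratio, of 46 listed, 27 were called lower (14 after centring), where 23.3% of the table was. The medians were -2.0 and -1.24. Cdc6, which loads the MCM helicase at origins, stood at -3.03 and -2.09 per the authors' deposited table. Gins1, part of the active helicase, had -3.07 and -2.06, and Wdhd1, which links helicase and polymerase, -3.28 and -2.08, per the authors' deposited table. Of 16 genes of nucleotide synthesis, 16 were lower in both tumours (13 after centring) but only 5 passed 2-fold in both (2 after centring), where 23.3% of the table did. In the authors' deposited table the ribonucleotide reductase subunits Rrm2 and Rrm1 had -4.07 and -2.45 in SCC1 and -2.04 and -1.44 in SCC2. Thymidine kinase Tk1 had -3.46 and -1.35 per the authors' deposited table. The purine enzyme Pfas was also called, with -1.08 and -1.33 per the authors' deposited table. By contrast thymidylate synthase Tyms was at -1.10 and -0.30 per the authors' deposited table and was not called.

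Genes that pack, hold and separate chromosomes were lower by more. The counts called lower in these lists stand against 23.3% of the table. Among condensin and cohesin genes 9 of 11 were called lower (6 after centring), with medians of -3.12 and -1.64. The condensin I subunits Ncapg and Ncaph had -4.90 and -4.14 in SCC1 and -2.83 and -2.34 in SCC2 per the authors' deposited table. The cohesin ring subunits Rad21 and Smc3, which also fold chromatin outside division, had -0.65 and -0.55 in SCC1 and -1.11 and -1.29 in SCC2 per the authors' deposited table, and these were the 2 not called. Of 35 kinetochore and checkpoint genes 31 were called lower (20 after centring), with medians of -3.61 and -1.54. Cenpk, a member of the inner kinetochore, was at -2.79 in SCC1 and -2.83 in SCC2 per the authors' deposited table, near-equal values. Oip5, which helps deposit the centromeric histone, had -4.18 and -2.77 per the authors' deposited table. Mitotic kinases and the chromosomal passenger complex had 13 of 14 called lower (11 after centring), with medians of -3.95 and -1.71. Nek2, a centrosome kinase, had -5.54 and -2.27, and Plk4, which starts centriole copying, -3.17 and -2.07, per the authors' deposited table. All 27 spindle motor and cytokinesis genes with a ratio, of 30 listed, were called lower (18 after centring), with medians of -4.47 and -1.74. Aspm, at the spindle poles, was at -5.50 and -2.49, and Cep55, which completes cell separation, at -5.10 and -2.91, per the authors' deposited table. The anaphase-promoting complex list had 8 of 10 called lower (3 after centring), with medians of -3.14 and -1.40. Its separase Espl1 had -4.38 and -2.0 and its inhibitor Fbxo5 -3.20 and -1.47 per the authors' deposited table. Its core subunit Cdc27, with -0.35 and -0.95, and its partner Ube2s, with -1.01 and -0.50, were the exceptions per the authors' deposited table.

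**Figure D2:**
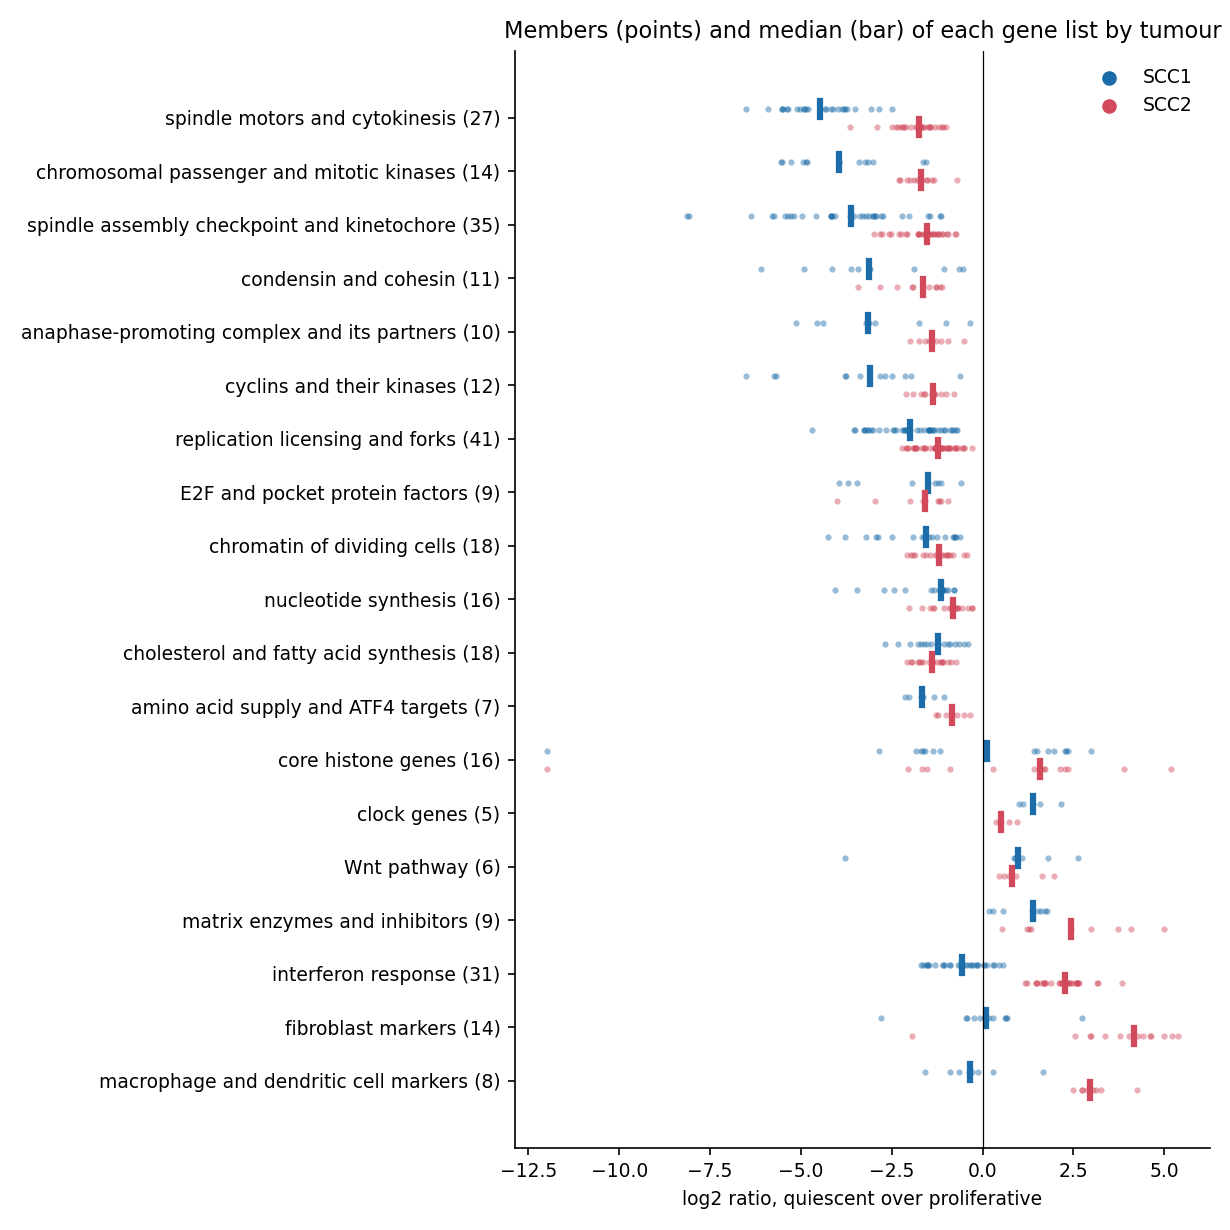
Log2 ratio of quiescent over proliferative cells for members (points) and median (bar) of 19 gene lists, SCC1 in blue and SCC2 in red, with the number of genes in parentheses. Mitotic lists lie further left in SCC1 (median -4.47 against -1.74 for spindle motors), the cholesterol list lies alike in both, and interferon, fibroblast and macrophage lists lie to the right in SCC2.

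The factors that drive these programmes were lower too. Of 9 genes of the E2F, pocket protein and MuvB list with a ratio, 7 were called lower (3 after centring; 23.3% of the table), and the medians were -1.51 for SCC1 and -1.59 for SCC2. Foxm1, the activator of late mitotic genes, had -3.46 and -1.59 per the authors' deposited table. E2f8, an E2F that represses, had -3.69 and -1.98 per the authors' deposited table. Unlike their target lists, Mybl1 (A-Myb) and the MuvB subunit Lin9 were lower by more in SCC2: per the authors' deposited table Mybl1 had -1.95 in SCC1 and -3.99 in SCC2, and Lin9 -1.51 and -2.96. Lin54, the MuvB subunit that binds DNA, was at -1.24 in both tumours per the authors' deposited table. The pocket protein gene Rbl1 (p107) had -1.30 and -1.21 per the authors' deposited table.

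Promoters of the called genes were examined for the motifs these factors read. The CHR element, TTTGAA or TTCGAA, is bound by MuvB. CCAAT is bound by NF-Y, and the E2F motif was searched as TTTGGCGC, TTTCCCGC, TTTCGCGC and TTTGCCGC. RefSeq promoter sequences of GRCm38.p6, from 250 bases before to 50 after the start, were searched on both strands, and 1226 of the 1609 genes had at least 1. E2F and CCAAT matches can overlap by their shared letters. The promoters of 3 mitotic genes and of 1 replication gene are shown, from 150 bases before to 30 after the start, because they hold these letters close to the start. Capitals mark CHR and CCAAT in Ccnb2 (the second B cyclin), Ube2c (the ubiquitin enzyme of the anaphase-promoting complex) and Aspm, and E2F in Mcm6 (a subunit of the replicative helicase).
Ccnb2 (chr9:70421525-70421704, minus strand): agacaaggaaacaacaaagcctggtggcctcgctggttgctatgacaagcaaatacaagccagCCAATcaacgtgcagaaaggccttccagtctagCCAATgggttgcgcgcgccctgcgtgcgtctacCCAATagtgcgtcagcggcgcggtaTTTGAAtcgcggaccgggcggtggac
Ube2c (chr2:164769779-164769958, plus strand): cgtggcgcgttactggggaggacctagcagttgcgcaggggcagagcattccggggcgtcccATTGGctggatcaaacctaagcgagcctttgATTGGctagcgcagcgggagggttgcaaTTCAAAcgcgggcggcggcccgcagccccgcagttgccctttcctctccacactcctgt
Aspm (chr1:139454623-139454802, plus strand): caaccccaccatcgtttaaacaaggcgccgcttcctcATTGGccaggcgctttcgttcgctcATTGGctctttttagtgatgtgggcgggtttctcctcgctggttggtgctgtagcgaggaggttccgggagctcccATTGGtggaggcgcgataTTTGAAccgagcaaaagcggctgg
Mcm6 (chr1:128359676-128359855, minus strand): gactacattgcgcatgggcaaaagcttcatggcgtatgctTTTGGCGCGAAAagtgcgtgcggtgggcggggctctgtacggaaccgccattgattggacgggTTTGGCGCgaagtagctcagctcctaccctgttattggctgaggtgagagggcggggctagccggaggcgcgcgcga

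In the authors' deposited table Ccnb2 had -5.74 in SCC1 and -1.32 in SCC2, and Ube2c -5.15 and -1.42. CHR letters were present in 129 of 343 promoters of called lower genes, or 37.6% (exact 95% binomial interval 32.5 to 43.0%, counting error only). The share was 12.3% in 154 promoters of called higher genes, 14.7% in 1016 promoters of the other genes of the table and 19.2% in all 32851 promoters. Among the 63 promoters of the kinetochore, spindle and cytokinesis lists it was 65.1% (52.0 to 76.7%), and of the 39 replication promoters 23.1%. The 343 promoters belong to 296 genes and the 63 to 56. Windows of 1 gene can overlap and hold the same letters. The intervals take promoters as independent and may be too narrow. A count made after the positions were seen gave CHR within 50 bases of the start in 35 of those 63 promoters (55.6%), against 5.31% of all promoters. E2F letters went the other way: 33.3% of replication promoters held them (19.1 to 50.2%), 7.94% of the kinetochore, spindle and cytokinesis promoters, and 2.26% of all promoters. In called lower genes the E2F share was 14.6%, in called higher genes 5.19% and in the table's other genes 5.22%. CCAAT was in 57.1% of called lower, 40.3% of called higher, 40% of the other genes' and 37.4% of all promoters. The AP-1 motif TGANTCA was in 9.09% of called higher and 3.79% of called lower promoters, against 7.09% in other genes of the table and 7.81% of all. GGCGCC, a motif of BMP-activated Smads, was in 22.1% of called higher and 24.8% of called lower promoters, against 19.3% in other genes of the table and 11.9% of all, so both shares were nearer to the rest of the table than to all promoters. CRE, TGACGTCA, was in 3.90% and 4.08%, against 2.76% and 1.79%. A match describes letters in a window and does not show binding.

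**Figure D3:**
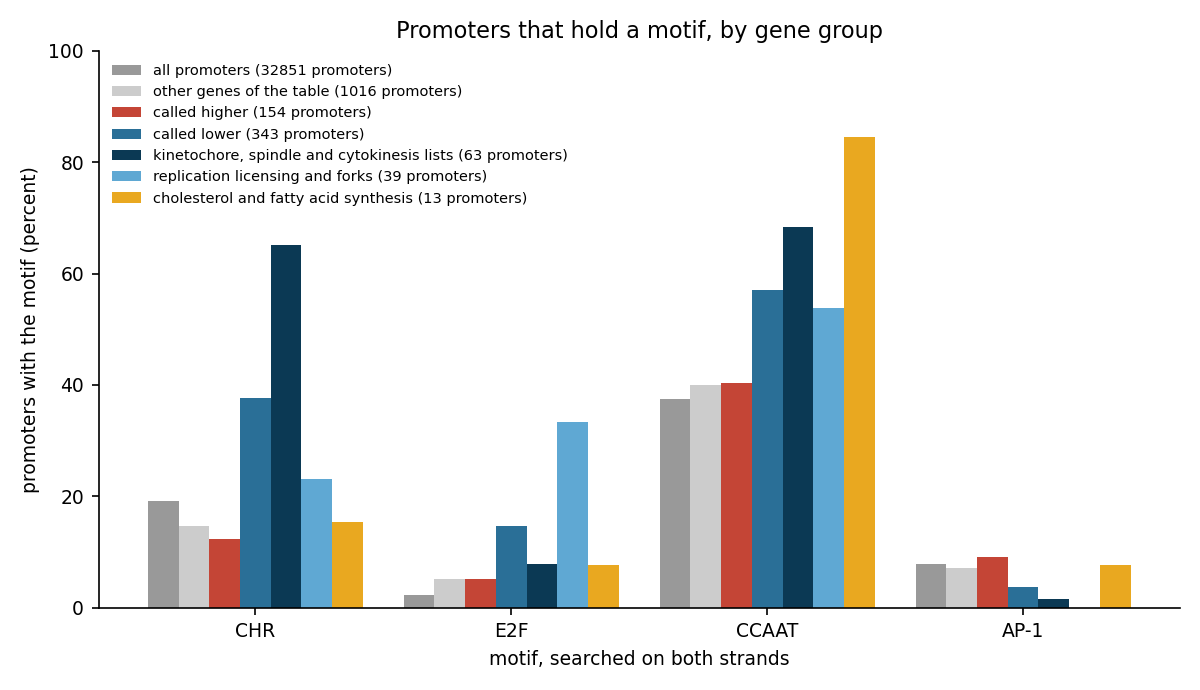
Percent of promoters that hold each of 4 motifs on either strand (vertical axis, from 0), by gene group (bar colour, with the number of promoters). CHR stands highest in the kinetochore, spindle and cytokinesis lists (65.1%), E2F in replication (33.3%) and CCAAT in cholesterol and fatty acid synthesis (84.6%).

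Histone genes split into opposite groups. Of 16 with a ratio, 8 were called higher and 4 lower (8 and 2 after centring), against 11.3% and 23.3% over the table. Both lower counts include Hist1h3g, whose ratio is undefined in both tumours. Replication-dependent histone genes give short RNAs without a poly(A) tail in S phase, but some of them also give polyadenylated RNA in resting cells. Hist2h3c2, an H3 gene, had 2.99 in SCC1 and 3.89 in SCC2 per the authors' deposited table, and its neighbour Hist2h3c1 1.80 and 2.27. The H4 gene Hist1h4i had 1.51 and 1.73 per the authors' deposited table. The linker histone Hist1h1c had 2.30 and 1.69 and the H2B gene Hist1h2bc 1.97 and 2.34 per the authors' deposited table. Hist3h2a stood at 1.42 and 1.41 per the authors' deposited table. Lower were the linker histone Hist1h1b, with -2.84 and -1.66, and Hist1h2ak, with -1.36 and -2.04, per the authors' deposited table. Hist1h4d had -1.58 and -1.53 per the authors' deposited table. Opposite signs past 2-fold were seen in 2 genes: Hist1h2bm with -1.63 and 1.54 and Hist1h3c with -1.18 and 2.15 per the authors' deposited table. Histone genes are near-identical copies, so the authors' counting could have split reads among them, and single members are uncertain. The sources used here do not say how RNA was selected for the libraries.

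Chromatin factors of dividing cells were lower, with 18 of 18 below 0 in both tumours (17 after centring) and 10 called (6 after centring; 23.3% of the table). Hells, a remodeller needed for DNA methylation, had -3.20 and -2.08 per the authors' deposited table. The maintenance methyltransferase Dnmt1 was at -1.62 and -1.96 per the authors' deposited table. Lamin B1 (Lmnb1), of the nuclear envelope, had -2.87 and -1.91 per the authors' deposited table.

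Cholesterol and fatty acid synthesis was lower by a like amount in both tumours. Cells make cholesterol through the mevalonate pathway, whose genes are switched on together by SREBP-2. Of 30 listed genes 18 had a ratio. All 18 were lower in both tumours (52.3% of the table) and 10 were called lower (23.3% of the table). The medians were -1.24 in SCC1 and -1.38 in SCC2, and 10 of 18 genes differed by more in SCC1, so this list did not have the SCC1 excess of the mitotic lists. No test of that difference between lists was made. Hmgcs1, which makes HMG-CoA, had -1.78 and -1.76 per the authors' deposited table. Idi1, further along, was at -2.68 and -2.08 per the authors' deposited table. Hmgcs1 had near-equal values in both tumours. Squalene epoxidase Sqle had -1.41 and -1.38, and Cyp51, which demethylates lanosterol, -1.98 and -1.93, per the authors' deposited table. Srebf2, the gene of SREBP-2 itself, had -0.77 and -1.78 per the authors' deposited table. Of the fatty acid genes, Fasn had -0.51 and -1.08, Acaca -1.07 and -0.74 and Elovl6 -0.64 and -1.39 per the authors' deposited table, and none of the 3 was called. The exception in size within the sterol branch was Fdps, with -2.31 in SCC1 and -0.95 in SCC2 per the authors' deposited table. After centring each tumour on its median, 16 of the 18 stayed below 0 in both tumours and 4 were called.

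**Figure D4:**
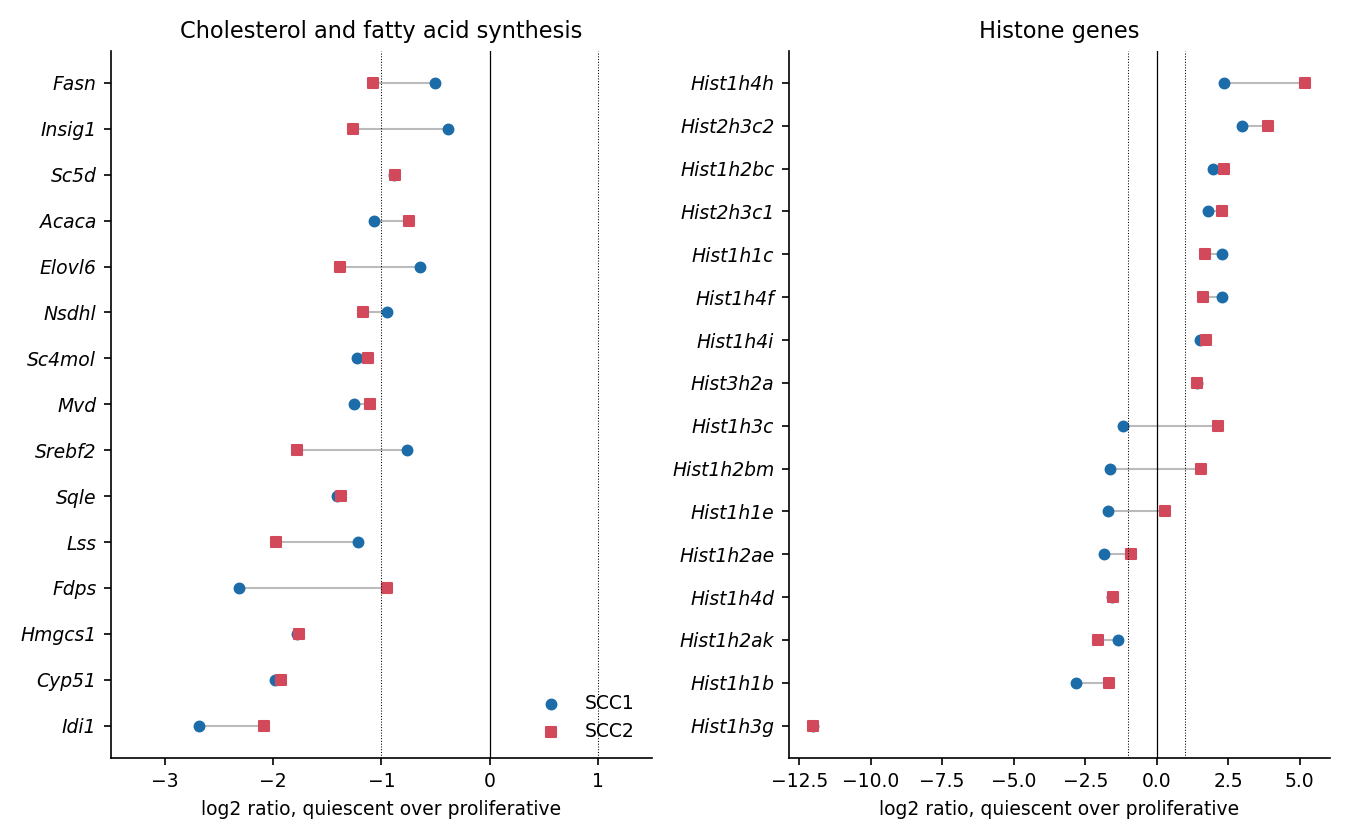
Log2 ratio of quiescent over proliferative cells for 15 of the 18 genes of cholesterol and fatty acid synthesis (left) and for histone genes (right), SCC1 as circles and SCC2 as squares joined by a line, with dotted lines at 2-fold. The lipid genes drawn lie below 0 in both tumours, whereas histone genes lie on both sides; Hist1h3g at -12 is an undefined ratio.

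Promoters of 2 of these enzymes are shown for comparison with the mitotic ones. Capitals mark CCAAT in both, and in Hmgcs1 also the sterol element, searched after the values were seen as TCACNCCAC on both strands.
Hmgcs1 (chr13:119690201-119690380, plus strand): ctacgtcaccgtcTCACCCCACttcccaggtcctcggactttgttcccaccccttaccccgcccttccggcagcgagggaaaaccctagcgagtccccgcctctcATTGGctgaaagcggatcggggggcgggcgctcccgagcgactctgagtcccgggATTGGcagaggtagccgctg
Idi1 (chr13:8885456-8885635, plus strand): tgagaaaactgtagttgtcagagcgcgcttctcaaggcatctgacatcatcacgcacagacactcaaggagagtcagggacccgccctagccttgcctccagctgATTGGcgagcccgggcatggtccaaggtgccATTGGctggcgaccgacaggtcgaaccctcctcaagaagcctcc

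CCAAT was present in 11 of the 13 promoters of the list (84.6%, interval 54.5 to 98.1%), against 37.4% of all promoters. CHR was in 2 of 13 (15.4%), near the share in all promoters. The sterol element was in 1 of the 13, that of Hmgcs1, and in 1.24% of all promoters.

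Genes of amino acid supply and of ribosome building were lower with fewer calls. Of 7 genes of amino acid supply 7 were below 0 in both tumours (6 after centring), where 52.3% of the table was. Of the 7, 3 were called lower (0 after centring), where 23.3% of the table was. The deposited medians were -1.66 and -0.85. Cth, of cysteine synthesis, had -2.02 and -1.24 per the authors' deposited table. Psat1, of serine synthesis, had -1.65 and -1.01, and the arginine transporter Slc7a1 -1.07 and -1.28, per the authors' deposited table. Among 16 solute carriers, 2 were called higher and 1 lower, against 11.3% and 23.3% over the table. Their medians were -0.23 and -0.26, against -0.61 and -0.49 over the table. After centring, 5 were called higher and 0 lower, and the medians were 0.38 and 0.24, so the direction of this list depends on scaling. Slc6a14, an amino acid transporter, was the one furthest up, with 1.66 and 5.20 per the authors' deposited table. Of 9 genes of ribosome building and MYC targets 4 were called lower (1 after centring; 23.3% of the table). They include Mycn, at -1.88 and -1.51, and the nucleolar genes Nop58, at -1.09 and -1.07, and Dkc1, at -1.08 and -1.02, per the authors' deposited table.

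Among the 15 genes furthest above in both tumours by the smaller of the 2 differences, Fam71a led with 3.21 and 3.87 per the authors' deposited table. Cpa6, a carboxypeptidase of the matrix, had 2.82 in SCC1 and 3.15 in SCC2 per the authors' deposited table. Gda, guanine deaminase, had 2.41 and 4.16 per the authors' deposited table. Bmf, a BH3-only gene that promotes cell death, was at 3.01 and 2.28 per the authors' deposited table. Glb1l2, a galactosidase-like gene, had 2.90 and 3.96, and 3300002I08Rik 2.82 and 3.04, per the authors' deposited table. Dcn, the matrix proteoglycan decorin, was at 2.75 and 2.54 per the authors' deposited table. Bmf, Dcn, Cpa6 and 3300002I08Rik were up by like amounts in both tumours, while Gda was higher in SCC2. Dcn is also a fibroblast marker. Of the 14 fibroblast markers with a ratio, 9 were higher in both tumours (13 after centring). Dcn was the only 1 of them called higher (4 after centring), as given below.

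BMP and TGF-β response genes were higher in both tumours. Of 27 listed immediate targets 12 had a ratio. Of the 12, 7 were called higher (10 after centring) and 0 lower, where 11.3% of the table was called higher. The deposited medians were 1.45 and 1.75. Id3, like Id1 a direct BMP target, had 2.70 and 2.14 per the authors' deposited table. Id2 was the exception, with 1.18 and -0.28 per the authors' deposited table. Of the pathway's ligands and receptors 6 of 39 listed genes had a ratio. Thbs1, thrombospondin that activates latent TGF-β, had 1.45 and 1.32 and was the 1 called (2 after centring), per the authors' deposited table. This 1 of 6 stands near the 11.3% of the table called higher. Tgfb3, a ligand, was at 0.36 and 0.71 per the authors' deposited table. Immediate early genes answer signals within minutes, and 16 of 28 listed had a ratio. Of the 16, 7 were called higher (11 after centring), where 11.3% of the table was. Their deposited medians were 1.91 and 0.87. Fosl1, an AP-1 subunit gene, was the exception, at 0.08 and -1.73 per the authors' deposited table. Dusp1, a phosphatase of MAP kinases, had 1.77 and 2.65, the transcription factor genes Klf2 2.02 and 1.54 and Csrnp1 1.83 and 1.39 per the authors' deposited table.

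Genes that restrain the cell cycle were called in both directions. Of 22 listed genes 7 had a ratio. Among the 7, 2 were called higher and 2 lower (3 and 0 after centring), against 11.3% and 23.3% of the table. The antiproliferative Btg2 had 2.03 and 1.25 and the stress gene Gadd45g 1.04 and 1.40 per the authors' deposited table. The CDK4 inhibitor Cdkn2c, an E2F target itself, had -1.64 and -1.46 per the authors' deposited table. Of the 7, 2 differed in sign between the tumours: Gas1 had 1.70 and -0.20 and Gadd45b -0.10 and 2.17 per the authors' deposited table.

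Clock, Wnt and matrix genes with a ratio were mostly higher in both tumours. Of 16 listed clock genes 5 had a ratio. All 5 were higher in both tumours (35.8% of the table) and 0 were called (3 after centring), with medians of 1.38 and 0.51. Per1, a clock repressor, came nearest with 1.12 and 0.94, and Bhlhe41 had 2.17 and 0.74, per the authors' deposited table. In the Wnt list 6 of 37 listed genes had a ratio, and 5 of the 6 were higher in both tumours. Of these, 1 was called (4 after centring), where 11.3% of the table was. The secreted Wnt antagonist Sfrp1 had 2.64 and 1.95, and the receptor Lgr6, a stem cell marker of skin, 1.79 and 0.91, per the authors' deposited table. The ligand Wnt7a was the exception, with -3.77 and 1.65 per the authors' deposited table. Of 9 matrix enzymes and inhibitors with a ratio, of 30 listed, 9 were higher in both tumours. Of the 9, 5 were called (7 after centring), where 11.3% of the table was. The deposited medians were 1.40 and 2.43. The metalloproteinases Mmp11 and Mmp13 had 1.72 and 1.37 in SCC1 and 1.29 and 1.32 in SCC2 per the authors' deposited table. Their inhibitor Timp3 was at 1.61 and 4.09, and Mmp12 at 1.53 and 3.73, per the authors' deposited table. Fibroblast and macrophage markers moved with the larger SCC2 values, and their part was not tested.

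Iron genes were divided. Apart from Tfrc, the ferrireductase-family gene Steap1 had -1.28 and -1.41 per the authors' deposited table. The iron oxidase Cp, which helps iron leave cells, had 2.89 and 5.03 per the authors' deposited table. The iron-binding secreted proteins Lcn2 and Ltf were higher mainly in SCC2: per the authors' deposited table Lcn2 had 1.00 and 4.70 and Ltf -0.04 and 6.71. Cells were sorted on CD71, so Tfrc is part of the gate and no finding.

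The tumours disagreed in interferon genes and in markers of other cell types. Of 53 listed interferon response genes 31 had a ratio. All 31 were at least 2-fold higher in quiescent cells of SCC2, where 29.8% of all genes were. In SCC1, 0 of the 31 were at least 2-fold higher and 10 were at least 2-fold lower. The medians were -0.55 in SCC1 and 2.27 in SCC2, and 10 genes were past 2-fold in opposite directions. After centring each tumour on its median, the medians were 0.05 and 2.77, and 17 of the 31 were higher in both tumours. The direction of this list in SCC1 thus depends on scaling. Ifit1, an antiviral RNA-binding gene, had -1.68 and 2.17 per the authors' deposited table. The immunoproteasome subunit Psmb8 had -1.65 and 1.70 per the authors' deposited table. Irf9, part of the interferon-activated ISGF3 complex, was among the 7 with 1 sign before centring, at 0.57 and 1.17 per the authors' deposited table. Outside that list the chemokine Ccl5 had -3.25 and 3.51, the wound keratin Krt6b -3.71 and 3.22 and the complement factor Cfb -1.79 and 2.94 per the authors' deposited table. Prom1, a surface glycoprotein, had -2.45 and 2.97 and arginase Arg1 -1.73 and 4.34 per the authors' deposited table. In the other direction Rep15 had 1.48 and -2.13, Mertk, a receptor for dying cells, 1.93 and -0.94, Zscan2 1.83 and -0.94, and Tnfaip8l3 2.60 and -0.77 per the authors' deposited table. The respiratory subunit gene Ndufs5 had 2.26 and -10.17 per the authors' deposited table, a ratio near the limit of the table.

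Markers of fibroblasts, macrophages and neutrophils were, by their medians, likewise much higher in SCC2 than in SCC1. Of these lists only the macrophage list had a deposited SCC1 median below 0. Of 14 fibroblast markers with a ratio, of 23 listed, 13 were at least 2-fold higher in SCC2, and the medians were 0.08 in SCC1 and 4.16 in SCC2. The collagen gene Col6a2 had -0.43 and 5.22 and Lum, lumican, 0.66 and 3.78 per the authors' deposited table. Only Dcn was called higher and only Fbln1, at -2.79 and -1.95 per the authors' deposited table, lower among these 14 (4 higher and 1 lower after centring). Of 22 listed macrophage and dendritic cell markers 8 had a ratio. All 8 were at least 2-fold higher in SCC2, with medians of -0.34 and 2.95 (0.27 and 3.44 after centring). Lysozyme Lyz2 had -1.57 and 2.87 per the authors' deposited table. The class II antigen gene H2-Ab1 was the 1 called in both, at 1.65 and 2.49 per the authors' deposited table. Of 3 neutrophil markers with a ratio, of 11 listed, 3 were at least 2-fold higher in SCC2. Retnlg, at 1.33 in SCC1, was the 1 called higher in both tumours. S100a9 had 0.21 and 4.43 per the authors' deposited table. None of the listed lymphocyte, erythroid, smooth muscle or melanocyte markers had a row. A higher share of such cells and more RNA per cell cannot be told apart in bulk samples, and the part of other cell types in the SCC2 values was not tested. Leaving out all marker and interferon genes, 179 genes remained called higher and 374 lower.

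Double negative cells, set beside the quiescent ones, showed another difference between the tumours. The ratios of double negative over proliferative and of quiescent over double negative cells share libraries with the ratios above, so the values are given side by side only. For the 148 cell division genes, the median of double negative over proliferative cells was -2.69 in SCC1 and -2.61 in SCC2. The quiescent over proliferative medians, given above, were -3.23 and -1.51. The quiescent over double negative median was -0.71 in SCC1 and 0.89 in SCC2. In SCC1, 133 of the 148 genes had this ratio below 0, and in SCC2 136 of 148 had it above 0. Over the table this median was -0.23 in SCC1 and 0.13 in SCC2. Ccnb1 had a quiescent over double negative ratio of -1.77 in SCC1 and 1.75 in SCC2 per the authors' deposited table. Mki67 had -1.54 and 0.85 per the authors' deposited table. By these medians, double negative cells had the lowest division RNA of the 3 populations in SCC2, and quiescent cells had it in SCC1. Per the submitters' processing notes build mm9 was also named for the double negative libraries. Immediate early genes had quiescent over double negative medians of 0.56 in SCC1 and -0.49 in SCC2. Fibroblast markers gave -2.68 and 3.07 in the same ratio, with double negative over proliferative medians of 2.62 and 0.99. Interferon genes gave -0.37 and 0.00, with double negative over proliferative medians of -0.07 and 2.25.

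**Figure D5:**
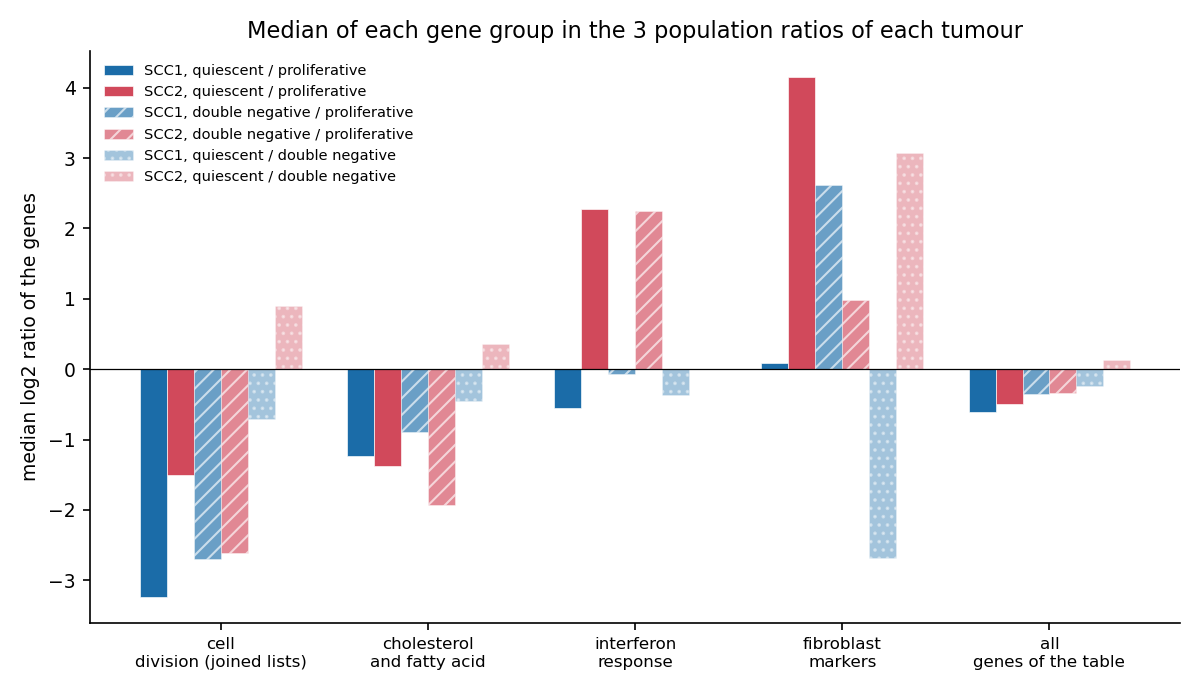
Median log2 ratio (vertical axis) of 5 gene groups in the 3 population ratios, SCC1 in blue and SCC2 in red, with plain bars for quiescent over proliferative, hatched bars for double negative over proliferative and dotted bars for quiescent over double negative. The dotted bars of cell division genes point down in SCC1 (-0.71) and up in SCC2 (0.89).

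Some ratios had no finite value. They were undefined, and set to 12 in size, for 19 genes in SCC1 and 29 in SCC2, and for 16 in both. Of the 16, 10 were at 12 and 6 at -12, and no fold can be given. The first kind includes Nts (the peptide neurotensin), Cd7, Cox4i2 and Lce1i (a cornified envelope gene), at 12 in both tumours per the authors' deposited table. The others are 1700065J18Rik, 1700096J18Rik, Pgpep1l, Scgb2b23-ps, Speer4d and Vmn1r54. The second kind holds Fgf15 (a growth factor), Hist1h3g, Gm15056, 1700102H20Rik and the microRNA genes Mir3082 and Mir3096b, at -12 in both per the authors' deposited table. With levels unknown, an undefined ratio may come from very few reads.

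Binding and accessibility were set beside the called genes as descriptions. Smad2/3 sites came from SCC1 cells treated with 5 ng/mL TGFβ1, and the deposited list holds 6143 sites with a motif. Of 182 called higher genes 25.8% had a site within 10 kb of the gene body (interval 19.6 to 32.8%), of 371 called lower genes with coordinates 18.9% (15.01 to 23.2%) and 21.5% of the 1047 other genes. Called higher genes were shorter, with a median length of 9.80 kb against 23.9 kb for called lower genes. The intervals overlap. Accessible regions came from a list of 61553 ATAC peaks merged over libraries, which cannot tell the populations apart. A peak overlapped 83.7% of the 343 promoters of called lower genes, 64.3% of the 154 of called higher genes, 68.2% of those of other genes of the table and 35.5% of all promoters. For the kinetochore, spindle and cytokinesis lists it was 95.2% and for cholesterol and fatty acid synthesis 92.3%. No test of these shares was made.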

How the data were processed

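RNA of quiescent and proliferative cells of 2 tumours was compared through the table of log2 ratios the authors deposited, 1 library per population and tumour. The submitters' processing notes name TopHat2 2.0.9, Cufflinks 2.2.0, Cuffdiff 2.2.0 and build mm10, with no order. The log2 base follows how Cuffdiff writes ratios. The sources used here do not give the scaling between libraries, read totals or the rule for entering the table.

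The members and the 46 gene lists were chosen with earlier results of these data known. A gene was called at a size of at least 1 on the log2 scale with the same sign in both tumours. Genes were named by rule: per direction the 15 with the largest smaller difference, 5 of each opposite kind, up to 4 per list and 2 of opposite sign, the 3 population markers and genes undefined in both tumours; further list members were named after their values were seen. Symbols were matched to RefSeq of GRCm38.p6 for 1600 genes, 1492 by current symbol. Overlapping promoters on opposite strands were checked to be reverse complements (1627 of 1627). Intervals are exact Clopper-Pearson. Software was scipy 1.17.1, pandas 2.3.3, numpy 2.4.6 and matplotlib 3.10.9 under Python 3.11.15, and counting was tested on simulated data. Copy number and mutation tables were not used here. Some listed genes enter the counts and medians but are not reported here singly.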

Additional observations from a re-analysis of the deposited data

Results flagged for a closer look

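The gene lists below, each with at least 5 members in the table, had medians of opposite sign in the tumours, with at least a 2-fold difference in 1 of them. With 1 library per population and tumour the difference between tumours was not tested, and no single library could be judged against others of its group. For the interferon response the median log2 ratio was -0.55 in SCC1 and 2.27 in SCC2. For inflammation and wound genes it was -0.16 and 3.47, and for macrophage and dendritic cell markers -0.34 and 2.95. Iron handling genes had -0.30 and 1.77. Keratinocyte differentiation genes went the same way, with -1.13 in SCC1 and 0.36 in SCC2. After centring each tumour on its median, SCC1 medians rose to 0.05 for interferon, 0.45 for inflammation, 0.27 for macrophage and 0.31 for iron genes. Only keratinocyte differentiation then kept opposite signs, at -0.52 and 0.85. Fibroblast markers, at 0.08 and 4.16, did not differ in sign. The part of other cell types in these values was not tested.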

How the results depend on the processing

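No paired analysis was possible because the result comes from no test: each ratio is already taken within 1 tumour. The called genes, 182 higher, 375 lower and 34 opposite, became 34, 70 and 4 at 4-fold and 365, 673 and 62 at 1.5-fold. Centring each tumour on its median gave 436 higher, 175 lower and 16 opposite. In 1 tumour alone, 317 (SCC1) to 480 (SCC2) genes were higher and 541 to 562 lower. The percent with the same sign, 88.1%, was 86.3% after centring and 90.1% without marker and interferon genes. Of 31 list medians, 14 moved by more than the spread between tumours on centring. As means of both tumours, solute carriers went from -0.24 to 0.31 and keratinocyte differentiation from -0.38 to 0.17. In the 150 bases around the start, motif shares of called lower promoters were 29.4% for CHR, 9.62% for E2F, 45.8% for CCAAT, 1.75% for AP-1, 0.292% for the sterol element (added after the data were seen) and 16.9% for GGCGCC. Those of called higher promoters were 5.84% for CHR, 27.3% for CCAAT and 12.99% for GGCGCC. Smad2/3 sites lay in the gene body alone in 13.7% of called higher and 11.9% of called lower genes, and within 50 kb in 48.4% and 38.8%. Depth is unknown, so low-count genes could not be set apart.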
